A study of Mus musculus with 18 samples.

Results

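Aminoacyl-tRNA synthetases are the enzymes that join each amino acid to its tRNA, and their genes were followed here in splenic B cells before and after stimulation of an endosomal Toll-like receptor. The members were chosen by name: 20 genes for the cytosolic enzymes (Gars and Kars, whose products serve both compartments, were counted with them) and 16 genes for enzymes of the mitochondrion, whose older symbols end in 2. All 36 listed genes were found among the 23420 genes of the data, and all 36 passed the filter on low values in every comparison.

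The B cells came from spleens of MRL/lpr mice, an autoimmune strain carrying the lpr mutation of Fas, and were purified with beads by negative selection. The labels give an age of 5 to 7 weeks for all mice, while the study's methods give 5 weeks for the females, so age may also differ between the sexes. Tlr9het controls were Tlr9+/- Tlr7-/- females. Tlr997 mice were Tlr7-/- females, homozygous per the paper for a Tlr9 allele encoding TLR9 with the signaling (TIR) domain of TLR7. Tlr779 mice were Tlr9-/- males with a Tlr7 allele encoding TLR7 with the TIR domain of TLR9. The treatment notes call the control Tlr9-/- where the titles call it Tlr9+/-; the titles were followed. Cultures ran for 4 h. Tlr9het and Tlr997 cells were left alone or given CpG ODN 1826, an agonist of TLR9, at 10 µg/ml, and Tlr779 cells were left alone or given CL097, an agonist of TLR7, at 5 µg/ml, giving 6 groups of 3 libraries and 18 libraries in all. Each genotype was represented by 3 mice. The matching control genotype for Tlr779 was not analysed here, and since sex, genotype, agent and possibly age change together between the CpG and CL097 arms, those arms were not compared by a test and their causes cannot be told apart.

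Synthetases fall into catalytic classes I and II, which have unrelated folds and attach the amino acid to different hydroxyl groups of the terminal ribose of the tRNA. In animal cells several cytosolic synthetases sit in a multisynthetase complex held together by the scaffold proteins Aimp1, Aimp2 and Eef1e1, whereas the mitochondrial enzymes are separate, nuclear-encoded proteins that are imported to charge the tRNAs of the mitochondrial genome. Many cytosolic synthetase genes belong to the program of the transcription factor ATF4, which responds to amino acid shortage, and B cells that leave rest to grow and divide raise their protein synthesis.

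Expression values are the deposited log2 CPM, which the authors had quantile-normalized, so they are not plain reads scaled to a library total. Percentages of a library below are parts of its summed normalized CPM, not of its reads. A gene was called higher or lower when limma gave a Benjamini-Hochberg adjusted p under 0.05 over all genes tested together with a log2 fold change beyond 0.5 in size; "rose" and "fell" below mean that both conditions were met. The 6 B cell marker genes summed to 5523 to 7338 CPM in the 9 unstimulated libraries and to 1653 to 3160 CPM in the stimulated ones. T cell markers summed to at most 39.7 CPM and NK cell markers to at most 15.6 CPM, neutrophil markers to 19.0 to 173 CPM, macrophage markers to 97.9 to 448 CPM and erythroid markers to 15.6 to 1023 CPM. The 5 plasma cell markers summed to 1082 to 1652 CPM in unstimulated and 2111 to 2633 CPM in stimulated libraries, and the 5 plasmacytoid dendritic cell markers to 337 to 402 and 122 to 251 CPM; the part of these shifts in the synthetase responses was not tested. Some sums rest on part of their list. In any library of a group, 3 or 4 of 5 plasmacytoid dendritic cell and 2 to 4 of 5 NK cell markers exceeded 0 log2 CPM. So did 4 of 6 erythroid, 5 or 6 of 6 neutrophil and 4 to 7 of 7 T cell markers. Tlr7 measured 2.68 to 3.48 log2 CPM in unstimulated Tlr9het, 4.81 to 5.18 in Tlr997 and 6.61 to 7.33 in Tlr779 cells, whereas Tlr9 spanned 6.93 to 8.08 over all libraries and was no lower in unstimulated Tlr9-/- Tlr779 cells (7.17 to 7.33) than in Tlr997 cells (7.015 to 7.06), so it did not mark the deleted allele. One library stood apart: Tlr997 unstimulated replicate 3 correlated with its 2 partners at r = 0.944 and 0.955 over genes, against 0.976 or more within the other groups. Several results that rest on it are given with and without it, and the others only with it.

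CpG raised most of the cytosolic synthetase genes of Tlr9het B cells and moved the mitochondrial genes unevenly. In the cytosolic group 17 of 20 genes rose and 0 fell, against 29.7% of all tested genes called higher and 28.2% called lower. Their median log2 fold change was 1.48 (2.80-fold), with a range from -0.45 to 2.06. Of the 16 mitochondrial genes 7 rose, 2 fell and 7 were not called, with a median of 0.35 (1.28-fold) and a range from -1.24 to 1.83. The median over all 11494 tested genes was 0.04. Fewer cells of a type and less RNA per cell cannot be told apart in these bulk samples. Since values are normalized between libraries, RNA content per cell was not measured.

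**Figure D1:**
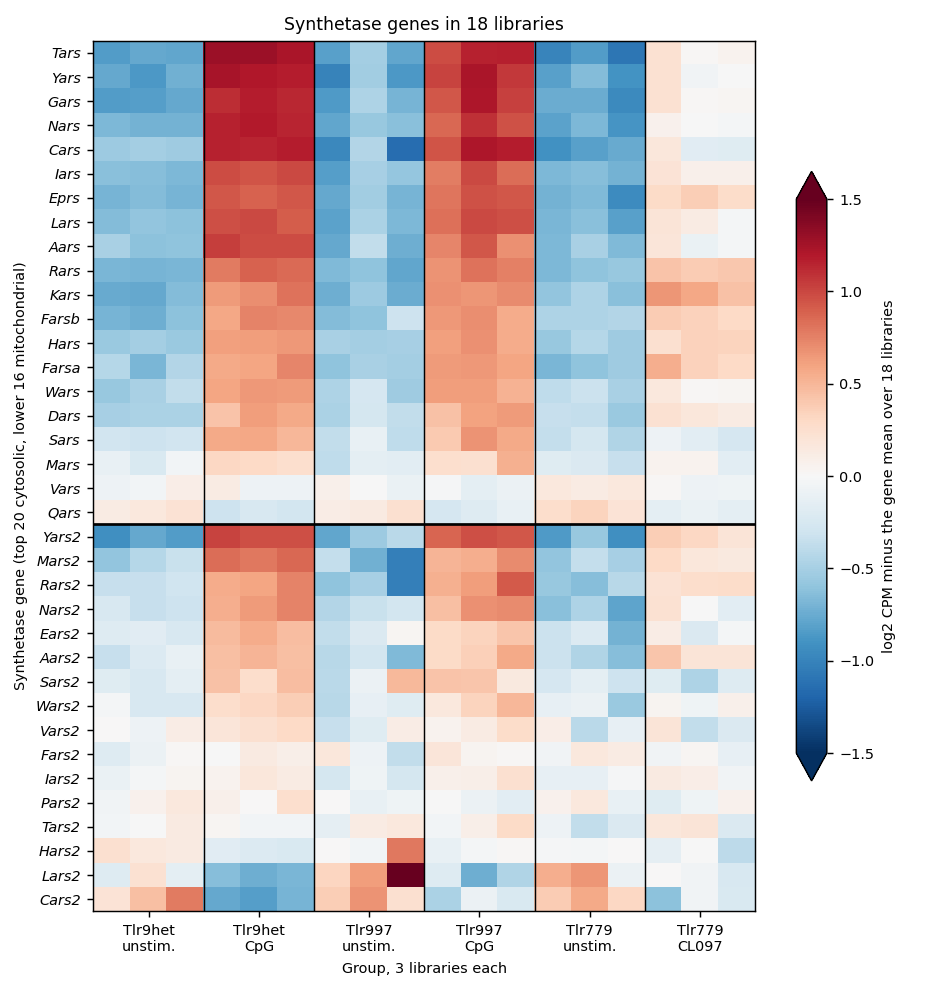
Each row is a synthetase gene and each column a library, grouped by condition; colour gives log2 CPM minus the gene's mean over the 18 libraries, and within each compartment genes are ordered by their CpG response in Tlr9het cells. Most of the 20 cytosolic rows turn from blue to red with CpG and to white or pale red with CL097, Vars and Qars do not, and Lars2 reaches its highest value (11.05 log2 CPM) in 1 unstimulated Tlr997 library.

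Taken as a share of the library, the 20 cytosolic genes summed to 0.336%, 0.338% and 0.343% of CPM in unstimulated Tlr9het cells and to 0.881%, 0.879% and 0.868% with CpG. In Tlr997 cells the shares were 0.321%, 0.376% and 0.333% before and 0.788%, 0.876% and 0.830% after CpG. Tlr779 cells held 0.338%, 0.355% and 0.320% before and 0.570%, 0.534% and 0.516% after CL097. The 3 unstimulated groups lay within 0.32% to 0.38%, every stimulated library lay above every unstimulated one, and the CL097 libraries lay below the CpG libraries.

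Mitochondrial synthetases made up a far smaller share. All 16 genes summed to 0.0936% ± 0.0108 (SD, n = 3) of CPM before and 0.0825% ± 0.0013 after CpG in Tlr9het cells. In Tlr997 cells the sums were 0.160% ± 0.074 and 0.0899% ± 0.0080, the first raised by replicate 3 (0.107%, 0.128% and 0.244%). In Tlr779 cells they were 0.113% ± 0.022 before and 0.0948% ± 0.0077 after CL097. Lars2, which stood apart from the rest, took a large part of these sums, and without it the direction turned. The other 15 genes summed to 0.0311% ± 0.0008 (SD, n = 3) of CPM in unstimulated Tlr9het cells and 0.0430% ± 0.0007 with CpG. Tlr997 cells went from 0.0300% ± 0.0021 to 0.0431% ± 0.0026, and Tlr779 cells from 0.0286% ± 0.0005 to 0.0352% ± 0.0021. The mean log2 CPM of the 20 cytosolic genes minus that of the 16 mitochondrial genes widened from 2.79 ± 0.04 (SD, n = 3) to 3.70 ± 0.03 with CpG in Tlr9het cells, from 2.80 ± 0.12 to 3.64 ± 0.07 in Tlr997 cells, and from 2.86 ± 0.04 to 3.31 ± 0.02 with CL097 in Tlr779 cells. Without Lars2 this difference was larger in every group. It then widened from 3.11 ± 0.04 to 3.96 ± 0.03 in Tlr9het cells and from 3.18 ± 0.08 to 3.91 ± 0.06 in Tlr997 cells. In Tlr779 cells it widened from 3.22 ± 0.03 to 3.63 ± 0.02. Stimulated and unstimulated libraries did not overlap in the difference in any genotype, with or without Lars2.

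**Figure D2:**
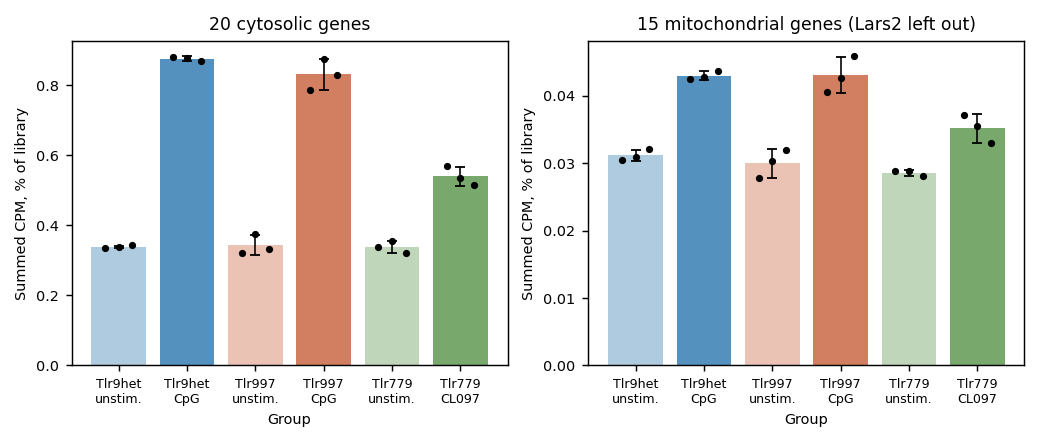
Bars give the mean and error bars the SD of the summed CPM of a compartment as a percent of the library, with the 3 libraries of each group as points; both vertical axes start at 0 and differ in scale. Cytosolic genes went from 0.339% to 0.876% with CpG in Tlr9het cells, and mitochondrial genes without Lars2 from 0.0311% to 0.0430%.

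Promoter windows from RefSeq (GRCm38.p6; 250 bases before to 50 after each annotated start) were found for 27 of the 36 members and searched on both strands for 2 motifs. The ATF4 composite element TGATGNAA was in the windows of 5 of 13 cytosolic genes (Aars, Gars, Iars, Tars and Yars) and of 0 of 14 mitochondrial genes, beside 4.51% of all 27025 genes with a window. The CpG responses in Tlr9het cells of those 5 genes ranged from log2 1.57 to 2.06 (median 1.95) and those of the other 8 cytosolic genes from -0.45 to 1.60 (median 1.08). The 14 mitochondrial genes, all without the element, ranged from -1.24 to 1.83 (median 0.53). Cars, Hars, Lars, Nars, Rars, Vars and Wars had no window and were not searched. Their responses ran from -0.0013 (Vars) to 1.86 (Nars), so these medians do not cover all cytosolic genes. The E-box CACGTG, the element bound by MYC and related factors, was in the windows of 4 cytosolic genes (Aars, Farsb, Iars and Tars) and 1 mitochondrial gene (Ears2), beside 8.09% of all genes, and reads the same on both strands. In Tlr9het cells the CpG responses of those 4 cytosolic genes ranged from log2 1.36 to 2.06 (median 1.59). The 9 other searched cytosolic genes ranged from -0.45 to 1.99 (median 1.15). Whether either motif bears on the response was not tested. In Aars, Iars and Tars, which held both motifs, the E-box began at -146, -69 and 20 from the start and did not overlap the ATF4 element. The windows of 30 bases that follow show where the ATF4 element lies in the genes that include the 3 largest responders; each reads 5′ to 3′ on the strand of the gene, capitals mark the element (on the opposite strand in all but Yars), 1 match is shown per gene, and a match is a description, not a site of binding.
Aars, plus strand, chr8:111033840-111033869: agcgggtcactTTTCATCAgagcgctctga
Gars, plus strand, chr6:55037960-55037989: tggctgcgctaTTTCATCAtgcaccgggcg
Iars, plus strand, chr13:49682126-49682155: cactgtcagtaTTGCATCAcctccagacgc
Tars, minus strand, chr15:11399655-11399684: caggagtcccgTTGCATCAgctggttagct
Yars, plus strand, chr4:129189895-129189924: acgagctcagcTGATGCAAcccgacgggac
Counted from the RefSeq start, the first base of the match shown lies at 10 in Aars, -30 in Gars, 8 in Iars, -15 in Tars and 4 in Yars. Aars also held a match at -112, which is not shown.

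Among the cytosolic enzymes the largest CpG responses were those of Tars, Yars and Gars, which charge threonine, tyrosine and glycine. Tars (chr15:11382301-11399665, minus strand, GRCm38, GENCODE M21) measured 7.11, 7.19 and 7.18 log2 CPM in unstimulated Tlr9het cells and 9.24, 9.24 and 9.18 with CpG. In Tlr997 cells it measured 7.14, 7.44 and 7.18 before and 8.93, 9.11 and 9.12 after CpG, and in Tlr779 cells 6.97, 7.12 and 6.87 before and 8.18, 7.97 and 8.003 after CL097. Every stimulated library was above every unstimulated one, with the CL097 libraries between. Such separation was common: stimulated and unstimulated libraries did not overlap for 80.1% of all tested genes in Tlr9het, 71.2% in Tlr997 and 67.8% in Tlr779 cells. The log2 fold changes of Tars were 2.06 ± 0.08 (SE; limma adjusted p = 4.4e-11), 1.80 ± 0.08 (adjusted p = 1.8e-10) and 1.06 ± 0.09 (adjusted p = 2.9e-05), or 4.17-, 3.49- and 2.09-fold.

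Yars (chr4:129189760-129219607, plus strand) was the lowest cytosolic gene per length in unstimulated Tlr9het cells. It measured 5.94, 5.84 and 5.98 log2 CPM in Tlr9het cells and 7.94, 7.90 and 7.88 with CpG. The Tlr997 libraries held 5.71, 6.18 and 5.84 before and 7.71, 7.93 and 7.77 after CpG, and the Tlr779 libraries 5.88, 6.06 and 5.81 before and 6.93, 6.65 and 6.70 after CL097. Again no stimulated library overlapped an unstimulated one. Fold changes of Yars were 3.97, 3.71 and 1.79 (log2 1.99 ± 0.10, 1.89 ± 0.10 and 0.84 ± 0.10; limma adjusted p = 7.5e-10, 1.6e-09 and 0.00019).

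Gars (chr6:55038007-55079500, plus strand) makes the glycine enzyme of both compartments from a single gene. Its level was 7.42, 7.44 and 7.49 log2 CPM in unstimulated Tlr9het cells and 9.37, 9.43 and 9.39 with CpG. Tlr997 cells measured 7.41, 7.80 and 7.57 before and 9.19, 9.48 and 9.29 after CpG, and Tlr779 cells 7.51, 7.52 and 7.31 before and 8.49, 8.28 and 8.29 after CL097. Kars, which likewise serves both compartments, charges lysine. It went from 7.32, 7.297 and 7.42 to 8.71, 8.76 and 8.88 in Tlr9het cells, from 7.34, 7.52 and 7.32 to 8.76, 8.73 and 8.77 in Tlr997 cells, and from 7.47, 7.61 and 7.44 to 8.73, 8.65 and 8.50 in Tlr779 cells. Both genes were separated in all 3 genotypes, Gars by log2 fold changes of 1.95 ± 0.09, 1.73 ± 0.09 and 0.91 ± 0.09 and Kars by 1.44 ± 0.06, 1.36 ± 0.06 and 1.12 ± 0.08 (SE; the largest limma adjusted p of the 6 was 6.1e-05). The Kars response to CL097 was the largest among the 20 cytosolic genes in Tlr779 cells.

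At the other end stood Qars, Vars and Mars, the enzymes for glutamine, valine and methionine. Qars (chr9:108507706-108515941, plus strand) measured 7.16, 7.19 and 7.25 log2 CPM in unstimulated Tlr9het cells and 6.72, 6.79 and 6.75 with CpG. In Tlr997 cells it went from 7.14, 7.16 and 7.27 to 6.78, 6.83 and 6.92, and in Tlr779 cells from 7.29, 7.37 and 7.23 to 6.89, 6.93 and 6.89. Qars was thus lower in every stimulated library than in every unstimulated library of its genotype, by log2 -0.45 ± 0.06, -0.35 ± 0.06 and -0.40 ± 0.06 (limma adjusted p = 7.6e-06, 8.2e-05 and 0.00087), which did not reach the fold threshold of 0.5.

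Vars measured 8.54, 8.58 and 8.71 log2 CPM in unstimulated Tlr9het cells and 8.74, 8.54 and 8.54 with CpG, so the groups overlapped. In Tlr997 cells it went from 8.69, 8.61 and 8.51 to 8.60, 8.47 and 8.53, and in Tlr779 cells from 8.78, 8.74 and 8.78 to 8.64, 8.54 and 8.55. Vars had a log2 fold change of -0.0013 ± 0.071 in Tlr9het cells, with a 95% interval from -0.15 to 0.15 that leaves out the responses of the 17 genes that rose. Mars measured 6.88, 6.77 and 6.95 before and 7.31, 7.29 and 7.25 after CpG in Tlr9het cells, 6.61, 6.85 and 6.84 before and 7.24, 7.23 and 7.53 after CpG in Tlr997 cells, and 6.82, 6.77 and 6.64 before and 7.05, 7.05 and 6.83 after CL097 in Tlr779 cells. Its log2 fold changes of 0.42 ± 0.09, 0.57 ± 0.09 and 0.23 ± 0.09 were called only in Tlr997 cells (limma adjusted p = 5.2e-05), and a difference between the genotypes was not called (difference of responses 0.15 ± 0.12, adjusted p = 0.59). Without Tlr997 unstimulated replicate 1 or Tlr997 CpG replicate 3 the Mars value became 0.49 and 0.47 and the call was lost.

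Wars, which charges tryptophan and is known as an interferon-inducible gene, rose with CpG. It measured 6.37, 6.46 and 6.56 log2 CPM before and 7.53, 7.58 and 7.58 after CpG in Tlr9het cells, 6.47, 6.68 and 6.41 before and 7.57, 7.57 and 7.46 after CpG in Tlr997 cells, and 6.56, 6.62 and 6.45 before and 7.102, 6.95 and 6.96 after CL097 in Tlr779 cells. The log2 fold changes of Wars were 1.10 ± 0.07 and 1.01 ± 0.07 with CpG (limma adjusted p = 1.2e-08 and 3.5e-08). With CL097 the value was 0.46 ± 0.08 (adjusted p = 0.001), under the fold threshold, although the groups did not overlap.

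**Figure D3:**
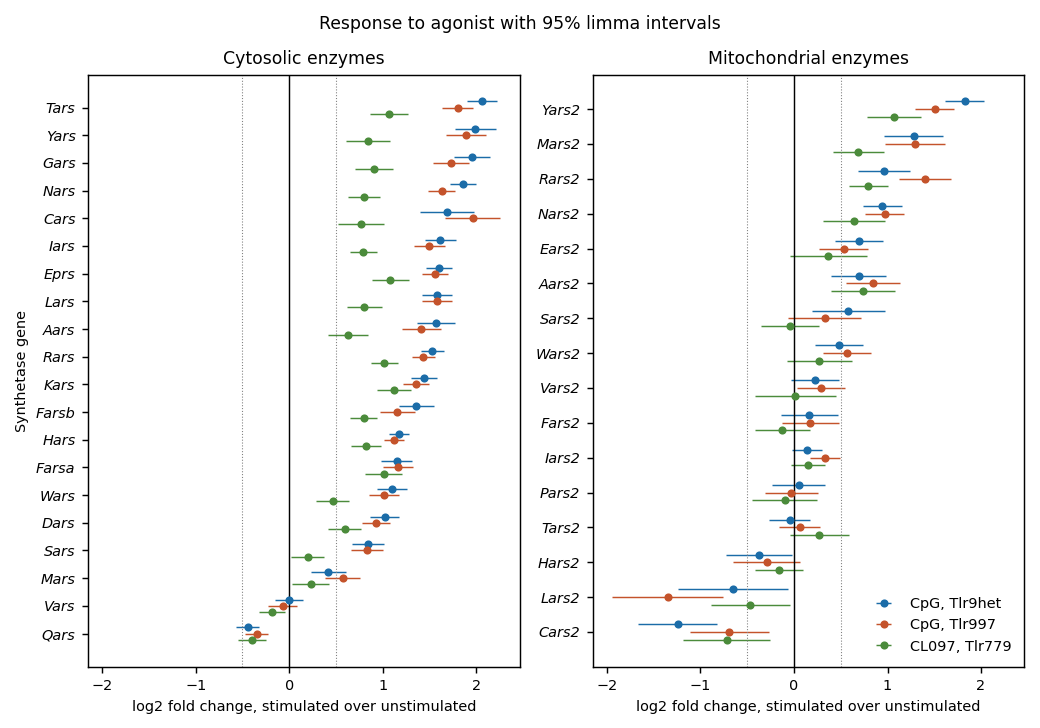
Points give the log2 fold change of stimulated over unstimulated cells for each synthetase gene, with 95% limma intervals, for CpG in Tlr9het (blue) and Tlr997 (red-brown) cells and CL097 in Tlr779 cells (green); dotted lines mark the fold threshold of 0.5. Cytosolic genes from Tars (2.06) down to Sars (0.84) rose in Tlr9het cells, and Mars, Vars and Qars trail the cytosolic group.

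The other 13 cytosolic genes (Aars, Cars, Dars, Eprs, Farsa, Farsb, Hars, Iars, Lars, Nars, Rars, Sars and Wars) all rose with CpG in both genotypes, by log2 0.84 (Sars) to 1.86 (Nars) in Tlr9het cells. In Tlr997 cells they spanned 0.83 (Sars) to 1.96 (Cars). By catalytic class, 6 of 9 class I and 10 of 10 class II cytosolic genes rose in Tlr9het cells, with medians of 1.53 and 1.40; Eprs, whose protein holds an enzyme of each class, was counted in neither. The 3 cytosolic genes that were not called (Qars, Vars and Mars) are all of class I. Of the 8 enzymes of the multisynthetase complex 6 rose (median 1.48), and of the 12 other cytosolic enzymes 11 rose (median 1.46).

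Exon overlaps with neighbouring genes limit a few of these values. The exons of Aars overlap those of Exosc6 on the same strand over 1326 bp (14.3% of the annotated exon length of Aars), so reads there could belong to either gene. Iars2 and Rab3gap2 overlap on opposite strands over 2034 bp, Farsb and Sgpp2 over 248 bp, Cars2 and Naxd over 422 bp, Hars and Hars2 over 195 bp, and Mars and Ddit3 over 68 bp. The library kit keeps strand, but the strand setting of the counting is not given in the sources used here.

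Mitochondrial enzymes responded in both directions. Yars2 (chr16:16302965-16309640, plus strand), the tyrosine enzyme, rose most. It measured 3.62, 3.78 and 3.71 log2 CPM in unstimulated Tlr9het cells and 5.55, 5.52 and 5.51 with CpG. Tlr997 cells went from 3.76, 4.00 and 4.14 to 5.42, 5.51 and 5.48, and Tlr779 cells from 3.69, 3.97 and 3.63 to 4.91, 4.85 and 4.74 with CL097. Yars2 thus behaved like the cytosolic majority, with log2 fold changes of 1.83 ± 0.10, 1.51 ± 0.10 and 1.07 ± 0.12 (limma adjusted p = 1.3e-09, 1.1e-08 and 0.00016).

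Mars2 and Rars2, for methionine and arginine, followed. Mars2 measured 3.49, 3.65 and 3.74 log2 CPM before and 4.91, 4.86 and 4.94 after CpG in Tlr9het cells, 3.72, 3.35 and 3.05 before and 4.59, 4.63 and 4.78 after CpG in Tlr997 cells, and 3.48, 3.72 and 3.58 before and 4.38, 4.24 and 4.23 after CL097. Rars2 measured 5.01, 5.01 and 5.07 before and 5.92, 5.96 and 6.10 after CpG in Tlr9het cells, 4.76, 4.87 and 4.33 before and 5.89, 5.99 and 6.28 after CpG in Tlr997 cells, and 4.79, 4.72 and 4.95 before and 5.58, 5.62 and 5.63 after CL097. In both genes the stimulated libraries lay above the unstimulated ones in all 3 genotypes. Log2 fold changes were 1.28 ± 0.15, 1.29 ± 0.15 and 0.69 ± 0.12 for Mars2 and 0.96 ± 0.13, 1.40 ± 0.13 and 0.79 ± 0.09 for Rars2 (the largest limma adjusted p of the 6 was 0.0014). Without Tlr997 unstimulated replicate 3 the Rars2 value in Tlr997 cells was 1.24 ± 0.10.

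Cars2 (chr8:11513977-11550783, minus strand), the mitochondrial cysteine enzyme, moved the other way from its cytosolic counterpart. It measured 2.69, 2.93 and 3.26 log2 CPM in unstimulated Tlr9het cells and 1.72, 1.65 and 1.79 with CpG. In Tlr997 cells it went from 2.85, 3.16 and 2.72 to 2.01, 2.39 and 2.25, and in Tlr779 cells from 2.87, 3.05 and 2.80 to 1.86, 2.43 and 2.26. All stimulated libraries were below the unstimulated ones of their genotype. The decreases were 2.37-, 1.62- and 1.65-fold (log2 -1.24 ± 0.20, -0.69 ± 0.20 and -0.72 ± 0.20; limma adjusted p = 6.5e-05, 0.0062 and 0.014), whereas Cars rose by log2 1.69, 1.96 and 0.77. The CL097 call of Cars2 was lost without Tlr779 unstimulated replicate 2 (log2 -0.65, adjusted p = 0.052).

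Lars2 (chr9:123366927-123462666, plus strand), the mitochondrial leucine enzyme, stood apart from the other 15 mitochondrial genes by its level. It measured 9.12, 9.54 and 9.16 log2 CPM in unstimulated Tlr9het cells and 8.67, 8.58 and 8.62 with CpG. Tlr997 cells held 9.63, 9.93 and 11.05 before and 9.12, 8.58 and 8.86 after CpG, and Tlr779 cells 9.85, 9.96 and 9.22 before and 9.32, 9.25 and 9.06 after CL097. The CpG groups did not overlap with the unstimulated ones and the CL097 groups did. Tlr997 unstimulated replicate 3 was the highest of the 18 libraries. The log2 fold changes of Lars2 were -0.65 ± 0.27 in Tlr9het, -1.35 ± 0.27 in Tlr997 and -0.47 ± 0.18 in Tlr779 cells (limma adjusted p = 0.046, 0.00057 and 0.055).

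Rn45s, the ribosomal RNA precursor gene, was set beside Lars2 after its values had been seen. Rn45s measured 12.23, 12.21 and 13.89 log2 CPM in unstimulated Tlr997 cells, 11.28, 11.93 and 10.74 in unstimulated Tlr9het cells and 11.71, 12.21 and 10.72 in unstimulated Tlr779 cells, and its highest value fell in the library with the highest Lars2. In all 3 unstimulated groups the library with the most Rn45s also had the most Lars2, and in 0 of the 3 stimulated groups. Without Tlr997 unstimulated replicate 3 the log2 fold change of Lars2 with CpG was -0.93 ± 0.15 in Tlr997 cells (adjusted p = 0.00013) and -0.65 ± 0.14 in Tlr9het cells (adjusted p = 0.0008), both called lower by limma. The Tlr9het call was however lost in 10 of 22 alternative fits, among them each fit that left out 1 Tlr9het library, and the part of ribosomal RNA reads in the Lars2 values was not tested.

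**Figure D4:**
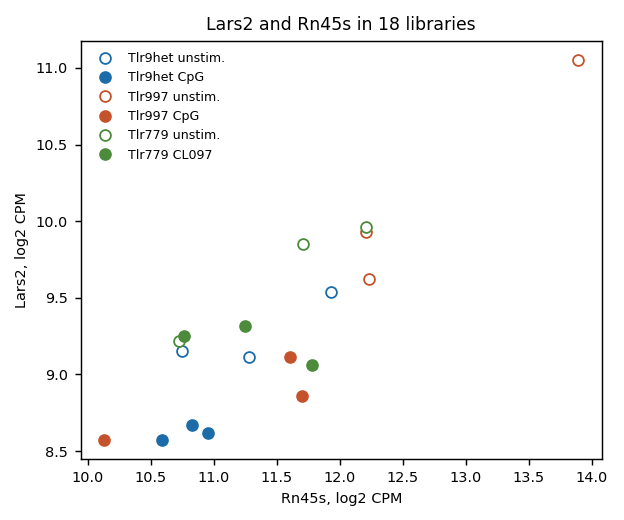
Each point is a library, placed by its log2 CPM of Rn45s (horizontal) and of Lars2 (vertical); open symbols are unstimulated and filled symbols stimulated. The unstimulated Tlr997 library at 13.89 and 11.05 is the highest of the 18 on both axes.

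Hars2, the mitochondrial histidine enzyme, measured 5.49, 5.40 and 5.39 log2 CPM before and 5.08, 5.05 and 5.03 after CpG in Tlr9het cells. In Tlr997 cells it went from 5.26, 5.20 and 6.04 to 5.14, 5.22 and 5.27, and in Tlr779 cells from 5.24, 5.22 and 5.25 to 5.12, 5.25 and 4.86. The value of 6.04 came from the library that also held the highest Lars2. The Tlr9het groups did not overlap, and the log2 difference of -0.38 ± 0.16 was not called (limma adjusted p = 0.054; -0.38 ± 0.06 with adjusted p = 0.00012, still under the fold threshold, without that library). In Tlr997 cells the Hars2 value with CpG was -0.29 with that library and -0.024 without it. Without it the difference of responses was 0.35 ± 0.09 (limma adjusted p = 0.057) and was not called. In the remaining mitochondrial genes, Nars2 (log2 0.94), Ears2 (0.70), Aars2 (0.69) and Sars2 (0.58) rose in Tlr9het cells, while Fars2, Iars2, Pars2, Tars2, Vars2 and Wars2 gave values between -0.05 and 0.48 that were not called. In Tlr997 cells Sars2 was called higher only without Tlr997 unstimulated replicate 3 (log2 0.57, against 0.33 with it).

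A cytosolic and a mitochondrial gene could be paired by name for 13 amino acids; phenylalanine, glutamate and proline, whose cytosolic enzymes have several subunits or a shared gene, were not paired. The cytosolic gene had the larger log2 fold change in 11 pairs with CpG in Tlr9het cells (median difference 0.88), in 11 in Tlr997 cells (0.56) and in 9 with CL097 in Tlr779 cells (0.22). The widest gap in Tlr9het cells was that between Cars and Cars2 (2.93), followed by Lars and Lars2 (2.23) and Tars and Tars2 (2.11). Mars against Mars2 ran the other way in all 3 genotypes (-0.86, -0.72 and -0.46), as did Vars against Vars2 (-0.23, -0.36 and -0.20). Yars and Yars2 had nearly equal responses in Tlr9het cells (difference 0.16).

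Levels were compared between genes only as log2 CPM per kb of the transcript with the longest coding sequence. On that scale, in unstimulated Tlr9het cells, the order ran from Lars2 (7.31 ± 0.23; mean ± SD, n = 3) through Sars (6.79), Vars, Nars (6.53), Eprs, Kars and Gars to Cars and Yars (4.38) at the foot of the cytosolic genes, followed by Rars2 (4.13), Tars2, Hars2 and Iars2 and ending with Mars2 (0.13). Neighbours in this order differed by no more than the larger of their SDs at 13 places in it, among them Vars and Nars, Kars and Gars, Lars and Dars, and the run from Aars through Mars and Farsa to Tars. With CpG the head of the order became Nars (8.38), Gars (8.15), Eprs (7.89) and Kars (7.65), and Qars (5.26) and Mars (5.71) became the lowest cytosolic genes.

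In all 6 groups every cytosolic gene was above every mitochondrial gene other than Lars2. In unstimulated Tlr9het cells the lowest cytosolic level was 4.38 and the highest mitochondrial level 4.13, and with CpG these were 5.26 and 5.09. The separation rested on the length used: with the union of all annotated exons it held in 0 of the 6 groups, although 18 or 19 of the 20 cytosolic genes then still lay above the highest mitochondrial gene other than Lars2. The low place of Mars2 likewise depends on its long annotated transcript of 11294 bp.

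**Figure D5:**
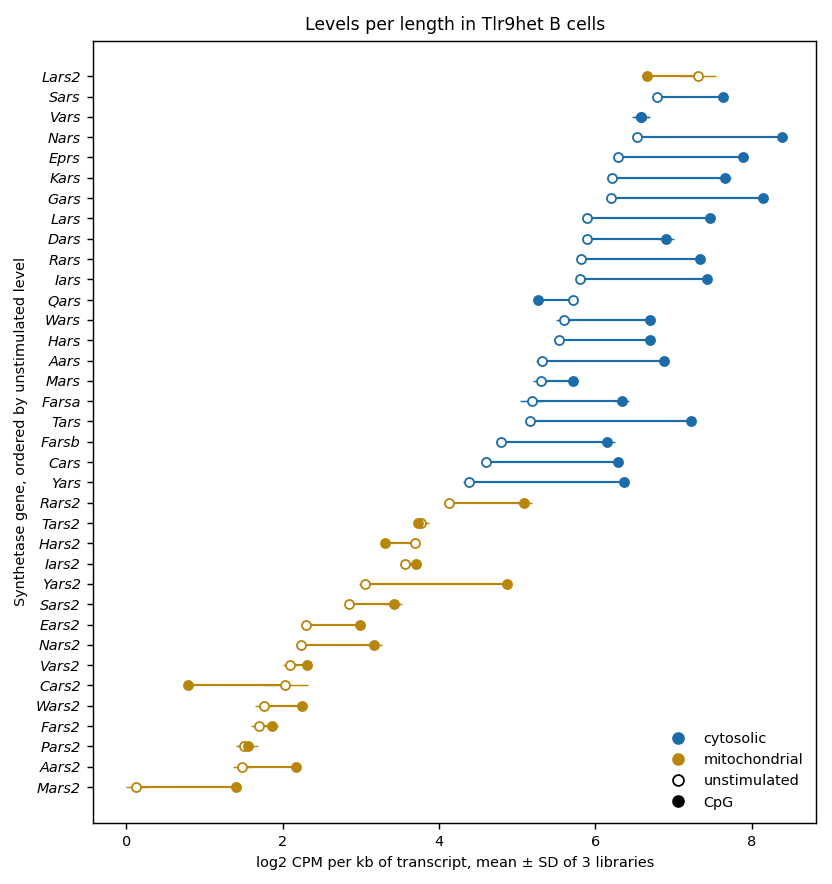
Open circles give unstimulated and filled circles CpG-treated Tlr9het cells, as mean ± SD of 3 libraries in log2 CPM per kb of transcript, for cytosolic (blue) and mitochondrial (ochre) genes ordered by the unstimulated level. Cytosolic genes other than Vars and Qars shift to the right, and Nars moves to the top at 8.38.

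The Tlr997 comparison asks whether the TIR domain of TLR7, put in place of that of TLR9, changes what CpG does. In Tlr997 cells 18 of 20 cytosolic genes rose and 0 fell (median log2 fold change 1.38), and 7 of 16 mitochondrial genes rose and 2 fell (median 0.33), against 29.6% of all tested genes called higher and 26% called lower. Without unstimulated replicate 3 the mitochondrial counts were 8 higher and 2 lower and the median 0.49. The responses of Tlr997 and Tlr9het cells came from separate libraries and ran in parallel over the 36 genes (r = 0.97 across genes, which are not independent replicates). Cytosolic genes responded less in Tlr997 cells in 15 of 20 cases (median difference over the 20 genes -0.09), and none of these differences was called. Over all 11494 tested genes the difference was above 0 in 5942, with a median of 0.01.

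No synthetase gene differed by genotype at the thresholds. Among unstimulated cells limma called 0 of the 36 members (0.0174% of all tested genes called higher and 0% lower), with 1 cytosolic and 4 mitochondrial genes at an unadjusted p under 0.05, beside 10.8% of all tested genes. With CpG 0 of 36 were called (1.26% of all genes higher, 1.47% lower), with 3 cytosolic genes and 1 mitochondrial gene at an unadjusted p under 0.05, beside 19% of all tested genes. The groups did not overlap for 3 cytosolic and 6 mitochondrial genes, and for 30% of all tested genes. For the difference between the CpG responses it was again 0 of 36 (0.687% higher, 0.853% lower), with 2 and 2 genes at that unadjusted p, beside 16% of all tested genes. With array quality weights 1 gene, Cars2, was called higher in Tlr997 cells with CpG (log2 0.55, limma adjusted p = 0.042).

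The smallest p for a member was that of Lars2 among unstimulated cells (log2 difference 0.93 ± 0.27, limma adjusted p = 0.33; 0.51 ± 0.15, adjusted p = 0.22, without the deviating library). With CpG it was that of Nars, the asparagine enzyme, which measured 9.83, 9.87 and 9.82 log2 CPM in Tlr9het and 9.54, 9.78 and 9.64 in Tlr997 cells. Its unstimulated levels were 7.97 to 8.01 and 7.91 to 8.11, and in Tlr779 cells it went from 7.88, 8.01 and 7.80 to 8.75, 8.68 and 8.66 with CL097. The 3 Tlr997 libraries with CpG lay below the Tlr9het ones, by 0.19 ± 0.06 (adjusted p = 0.12), and the CpG response of Nars was smaller by 0.23 ± 0.09 (adjusted p = 0.25), neither of which was called. Over the 20 cytosolic genes the outermost limits of the 95% intervals of the genotype difference with CpG were -0.42 and 0.25. Both were smaller in size than the CpG response of any of the 17 genes that rose in Tlr9het cells (log2 0.84 or more). For 3 of the 20 genes the unadjusted limma p was under 0.05 and none was called, so small differences could not be resolved. Over the 16 mitochondrial genes the outermost limits were -0.56 and 0.92.

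CL097 in Tlr779 cells moved the same groups by less. There 15 of 20 cytosolic genes rose and 0 fell (median log2 fold change 0.80, or 1.74-fold), and 5 of 16 mitochondrial genes rose and 1 fell (median 0.21), against 22.7% of all tested genes called higher and 23.6% called lower and a median over 11082 genes of -0.02. The cytosolic responses ran from -0.40 (Qars) to 1.12 (Kars). All 20 cytosolic genes had stimulated and unstimulated libraries that did not overlap, including the 5 that were not called (Mars, Qars, Sars, Vars and Wars), as did 67.8% of all tested genes. Side by side with CpG in Tlr9het cells, the CL097 value was the smaller in size for 19 of 20 cytosolic and 12 of 16 mitochondrial genes; doses, agents, receptors and sex differ, and no test was made. No member was called in opposite directions under the 2 agonists.

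Genes that work with the synthetases were described from lists. With CpG in Tlr9het cells 29.7% of all tested genes were called higher and 28.2% lower, and in Tlr997 cells 29.6% and 26%. With CL097 these shares were 22.7% and 23.6%. Between the genotypes with CpG, 1.26% of all tested genes were higher in Tlr997 cells and 1.47% lower. The scaffold genes of the multisynthetase complex all rose with CpG in Tlr9het cells: Eef1e1 by log2 2.87 ± 0.15, Aimp2 by 1.87 ± 0.12 and Aimp1 by 0.69 ± 0.07 (the largest limma adjusted p was 4.7e-07). In Tlr997 cells the values were 2.79, 1.97 and 0.64, and with CL097 they were 2.43, 1.28 and 0.28, the last not called. Other charging and proofreading genes were mixed, with 7 of 14 higher and 2 lower. Sepsecs, which makes selenocysteinyl-tRNA, rose by 1.27 and Dtd2, a deacylase that removes mischarged amino acids, by 1.06. Dtd1, another deacylase of this kind, fell by 0.68 on the log2 scale.

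Genes that supply tRNA moved in part with the cytosolic synthetases. Of 22 tested genes of tRNA processing and export 16 rose and 2 fell with CpG in Tlr9het cells (median log2 fold change 1.04). Rpp40 and Pop1, subunits of the RNase P and MRP enzymes, rose by 2.61 and 2.54, and Xpot, the export receptor of tRNA, by 1.79 ± 0.07 (1.64 in Tlr997 cells and 0.94 with CL097). Elac1 and Tsen34, which encode a tRNA 3′ processing enzyme and a tRNA splicing subunit, fell by 2.63 and 0.90. Of 22 genes for RNA polymerase III and its factors 12 rose and 3 fell (median 0.58). Polr3d, a subunit of the polymerase, rose by 2.26, while Maf1, the repressor of this polymerase, and Gtf3c1 fell by 1.23 and 1.12 on the log2 scale.

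Translation factors that use charged tRNA were less uniform. In the cytosolic elongation and termination list 4 of 8 genes rose, led by Etf1 (log2 1.34) and Eif5a (1.29), with Eef1d at 0.85, and Eef2 fell by 0.85. Of 9 mitochondrial translation factors 5 rose and 0 fell, with Tsfm (1.55) and Mrrf (1.38) the largest and Tufm (0.82) and Mtrf1l (0.63) the smallest of those called. The median of that list was 0.63, beside 0.35 for the mitochondrial synthetases.

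Of 29 tested genes of the ATF4 amino acid response 24 rose and 1 fell with CpG in Tlr9het cells, with a median log2 fold change of 1.85. Atf4 itself rose by 1.22 ± 0.07, Asns (asparagine synthetase) by 2.65 ± 0.19 and Trib3 by 3.25 ± 0.15, and the amino acid transporter genes Slc7a3 and Slc1a4 by 5.71 and 3.49. At the low end of those called were Cebpg (0.51) and Ddit4, which fell by 1.01. Ddit3, which encodes the stress-linked factor CHOP, was not called (0.36 ± 0.16, limma adjusted p = 0.053). In Tlr997 cells 24 rose and 1 fell (median 1.77), and with CL097 18 rose and 1 fell (median 0.79; Atf4 0.64, Asns 1.41, Trib3 1.19 and Ddit3 -0.01). Against Tlr9het with CpG, 2 genes of the list, Trib3 (log2 -0.59) and Cebpb (-0.81), were lower in Tlr997 cells (limma adjusted p = 0.033 and 0.026), while Atf4 differed by -0.20 ± 0.07 and was not called.

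Interferon response genes were called in both directions, in shares near those of all tested genes (29.7% higher and 28.2% lower). With CpG in Tlr9het cells 3 of 14 rose, with Cxcl10 (log2 2.55) and Isg15 (2.18) the largest, and 5 fell, among them Ifit3 (-1.56). In Tlr997 cells with CpG 4 of the 14, among them Ifit2 by 1.16 ± 0.27 (limma adjusted p = 0.022), were higher than in Tlr9het cells, whereas Wars differed by -0.03 ± 0.07 (adjusted p = 0.89). With CL097 6 rose and 0 fell, against 22.7% of all tested genes called higher and 23.6% called lower.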

How the data were processed

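RNA was taken from bead-purified splenic B cells and libraries were made with the TruSeq stranded mRNA kit. Per the study's methods and the submitters' processing notes, reads were trimmed (Trim Galore 0.6.5), checked (FastQC 0.11.7), aligned to mm10 with STAR 2.6.1a and counted with featureCounts (Subread 2.0.1). The deposited values are log2 CPM that the authors had quantile-normalized and passed through voom; they were used as deposited. Counts and depth are unknown, so no counting interval could be given. In 6306 of 6614 genes below -4 in all 12 Tlr7-/- libraries the value was the same for each replicate number, as after removal of an offset per replicate.

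Genes above 0 log2 CPM in at least 3 fitted libraries were tested with limma 3.58.1 (R 4.3.3; trended variance), fitting the 12 Tlr7-/- libraries in 1 model (11494 genes) and the 6 Tlr779 libraries in another (11082 genes). Replicate numbers deviated together in Tlr9het (r = 0.51, 0.29 and 0.51) and Tlr779 (0.20, 0.42 and 0.28) but not throughout Tlr997 (0.37, 0.083 and 0.025). With 3 mice per genotype, unstimulated and stimulated libraries of a genotype share mice, which the main fit did not use. Equal numbers of Tlr9het and Tlr997 are different mice (r = 0.19, -0.091 and -0.11 unstimulated, 0.32, -0.038 and 0.11 with CpG). A fit with the replicate block was an alternative, and in the Tlr7-/- libraries it joined those mice. On simulated data for the Tlr9het CpG comparison the script recovered 70 of 100 genes changed by log2 0.75 and 82 of 100 changed by 1.5. It made 9 false calls. Loci and lengths are from GENCODE M21 (GRCm38) by symbol.

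The members, lists and motifs were chosen with earlier results of these data known. Values of every library are given for the 3 largest and 3 smallest CpG responses in Tlr9het cells within each compartment, the member with the smallest p in each genotype comparison, and Gars, Kars and Wars; of each list, the 2 largest and 2 smallest called changes and genes chosen by name. Some items that this rule names are not reported here. Alternatives were another fold threshold, filter, pseudocount, variance model, library weights or set of libraries, the replicate block, and each library left out.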

Additional observations from a re-analysis of the deposited data

How the results depend on the processing

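Of the 74 member calls, all 74 kept direction and call with the replicate block, with all 18 libraries in 1 model, with array quality weights and with a mean filter of 2 log2 CPM; the block changed the number of genes called overall from 6650 to 6691, 6388 to 6456, 5134 to 5385, 2 to 2, 314 to 336 and 177 to 215 in the 6 comparisons, and no member count. No result reversed. With a log2 fold threshold of 1, 30 calls were lost; 6 genes were then higher with CL097 and 0 lower, and 1 was lower with CpG in each genotype. Without a filter or without trended variance 1 gene was lower with CpG in Tlr9het cells, since Lars2 was lost. By adjusted p alone 3 genes were lower with CL097. Array quality weights gave medians with CpG in Tlr997 cells of 1.30 (cytosolic) and 0.41 (mitochondrial), and 1 gene higher in Tlr997 cells with CpG. Leaving out 1 library at a time gave, for CpG in Tlr9het, 24 to 25 genes higher, 1 to 2 lower and medians of 1.46 to 1.51 and 0.31 to 0.39; for CpG in Tlr997, 22 to 26 higher, 2 lower and medians of 1.33 to 1.45 and 0.30 to 0.49; for CL097, 20 to 21 higher, 0 to 2 lower and medians of 0.75 to 0.82 and 0.15 to 0.24. The count of genes lower with CL097 was 0 without Tlr779 unstimulated replicate 2 and 2 without replicate 3. In these fits 14 calls of single members (Lars2, Mars, Ears2, Wars2 and Cars2) were lost and 748 held, genotype counts stayed at 0, and the mitochondrial median of the difference of responses ranged from -0.010 to 0.11. With exon-union lengths, chosen after seeing the data, the separation of compartments per kb held in 0 of 6 groups. The cause of these shifts was not tested. With 3 libraries a group and no depth, small differences between genotypes could not be resolved.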
